A study of Mus musculus with 25 samples.

Results

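Epididymal white adipose tissue (eWAT), a visceral depot, and inguinal white adipose tissue (iWAT), a subcutaneous depot, were compared by RNA-seq in lean wild type mice. The libraries were chosen by their labels, as those of wild type tissue on normal diet (ND), which gave 4 of eWAT and 3 of iWAT, 7 of the 25 libraries of the series. The mice were male C57BL/6N and received normal chow for 16 weeks from 5 weeks of age. No allele was altered and no agent was given in either group. The other 18 libraries came from wild type and *Acod1*-/- mice on high-fat diet (HFD), of which only the 10 wild type ones are set beside the lean mice, at the end. Each library was made from RNA of a whole, snap-frozen piece of fat, so every cell type of the piece contributed. The labels do not say whether libraries of the 2 depots with the same number came from 1 mouse. P-values therefore measure only the spread between these samples.

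White fat depots share a mature cell, the adipocyte, which stores triglyceride in 1 large droplet and secretes hormones such as leptin and adiponectin. Their developmental origins differ. Visceral depots such as eWAT are covered by mesothelium, a flat epithelium that carries the transcription factor *Wt1*, and their stromal cells express factors of the lateral and intermediate mesoderm. Subcutaneous depots such as iWAT express factors of limb and body wall, among them *Tbx15* and *Shox2*, and retain the anterior to posterior code of Hox genes of the position where they formed. iWAT is also known for beige adipocytes, which contain many mitochondria and the uncoupling protein *Ucp1*, and it encloses a lymph node.

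The promoters of 3 genes that the comparison turns on are shown first, since 1 of them (*Tcf21*) had reads in the eWAT libraries alone, 1 (*Shox2*) was 24.0-fold higher in iWAT and 1 (*Agt*) was the adipokine gene with the largest difference. The 250 bases before the annotated start of each gene were taken from RefSeq (build GRCm38.p6), are given 5′ to 3′ on the gene's strand, and lie at chr10:22820144-22820393, chr8:124569707-124569956 and chr3:66981772-66982021, all on the minus strand. Capitals mark a TATA box (TATAAA or TTTATA) or a GC box (GGGCGG or CCGCCC), letters that cover both strands.
Tcf21: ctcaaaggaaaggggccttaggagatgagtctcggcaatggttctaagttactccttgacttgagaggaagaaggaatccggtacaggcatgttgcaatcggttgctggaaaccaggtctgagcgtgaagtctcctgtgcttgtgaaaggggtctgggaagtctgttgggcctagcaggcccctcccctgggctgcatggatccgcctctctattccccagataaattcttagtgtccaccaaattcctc
Agt: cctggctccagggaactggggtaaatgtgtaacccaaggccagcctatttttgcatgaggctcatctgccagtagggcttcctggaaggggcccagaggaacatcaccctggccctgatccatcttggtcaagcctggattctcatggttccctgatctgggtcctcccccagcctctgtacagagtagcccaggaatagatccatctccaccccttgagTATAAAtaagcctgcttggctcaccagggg
Shox2: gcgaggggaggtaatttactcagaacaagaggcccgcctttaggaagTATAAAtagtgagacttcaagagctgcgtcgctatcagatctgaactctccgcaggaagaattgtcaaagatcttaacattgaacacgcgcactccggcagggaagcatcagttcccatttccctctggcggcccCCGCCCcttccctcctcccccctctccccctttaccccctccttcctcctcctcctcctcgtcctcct
Neither motif occurred before *Tcf21*. The windows of *Agt* and *Shox2* held 1 TATA box each, which 12.4% of the 32851 promoters of the same length held, and that of *Shox2* held 1 GC box, as did 32.7% of promoters. The *Shox2* window held 11 CpG dinucleotides, the *Tcf21* window 5 and the *Agt* window 0, against a median of 6. A match of letters is a description only. Of the 26 genes of a fixed panel, 17 had a promoter in the table used.

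The 7 libraries held 37860966 to 52335623 reads counted in genes, of which 4.67% to 11.6% came from mitochondrial genes. Values are CPM (counts scaled to a common library total) after TMM scaling, given in the order of the library numbers, eWAT 1 to 4 and iWAT 1 to 3. The tissue label was checked with 12 adipocyte genes, which summed to 42094 to 63999.8 CPM in eWAT and 41932 to 52201 CPM in iWAT. These ranges overlapped (fold of means 1.16, two-sided exact permutation p = 0.343), and the smallest p that 4 against 3 libraries allow is 0.0571. Every library of both depots carried the genes of fat.

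Genes of other tissues stood beside them in single libraries. Genes of epididymal epithelium, the duct that eWAT adjoins, summed to 38.2, 11543, 114 and 37 CPM in the 4 eWAT libraries and to 0.769 to 1.16 CPM in iWAT. The total in eWAT 2 was 1.17% of its counts. *Crisp1*, a sperm-coating protein of the epididymis, was at 0.809, 7098, 0.797 and 0.104 CPM, and *Lcn5*, an epididymal retinoid carrier, was at 0.0188, 45.3, 45.6 and 0 CPM, so eWAT 3 carried epididymal genes as well. *Gpx5*, a glutathione peroxidase of the epididymis, was at 5.26 CPM in eWAT 3 and at most at 0.124 CPM in the other 6 libraries. In eWAT 1 and 4 the sum was nearly all *Cuzd1* (35, 2134, 5.10 and 33.7 CPM in eWAT 1 to 4). Sperm genes, the protamines among them, summed to 5.68, 90.9, 0.744 and 4.87 CPM in eWAT. Skeletal muscle genes summed to 10879, 9.21 and 427 CPM in iWAT and to 17.2 to 45.7 CPM in eWAT, so muscle genes were prominent in iWAT 1 and present in iWAT 3. The skin keratin *Krt14* reached 44 CPM in iWAT 3 and was at 0 to 7.48 CPM in the other 6 libraries. *Krt10*, of upper skin layers, was at 69.9 CPM in eWAT 3 and at 2.35 to 5.58 CPM elsewhere. B cell genes were high in every iWAT library, as described below. In a principal component analysis the first component (56.9% of variance) separated the depots and the second (16.4%) set eWAT 2 apart, at -90.4 against -14.3 to 53.2 in the other 6. Each count of genes was therefore repeated with every library left out in turn, and the range is given beside a count that this moved by over 1.5 times. Counts of 1 or 2 genes in a list often moved in this way and are given alone.

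**Figure D1:**
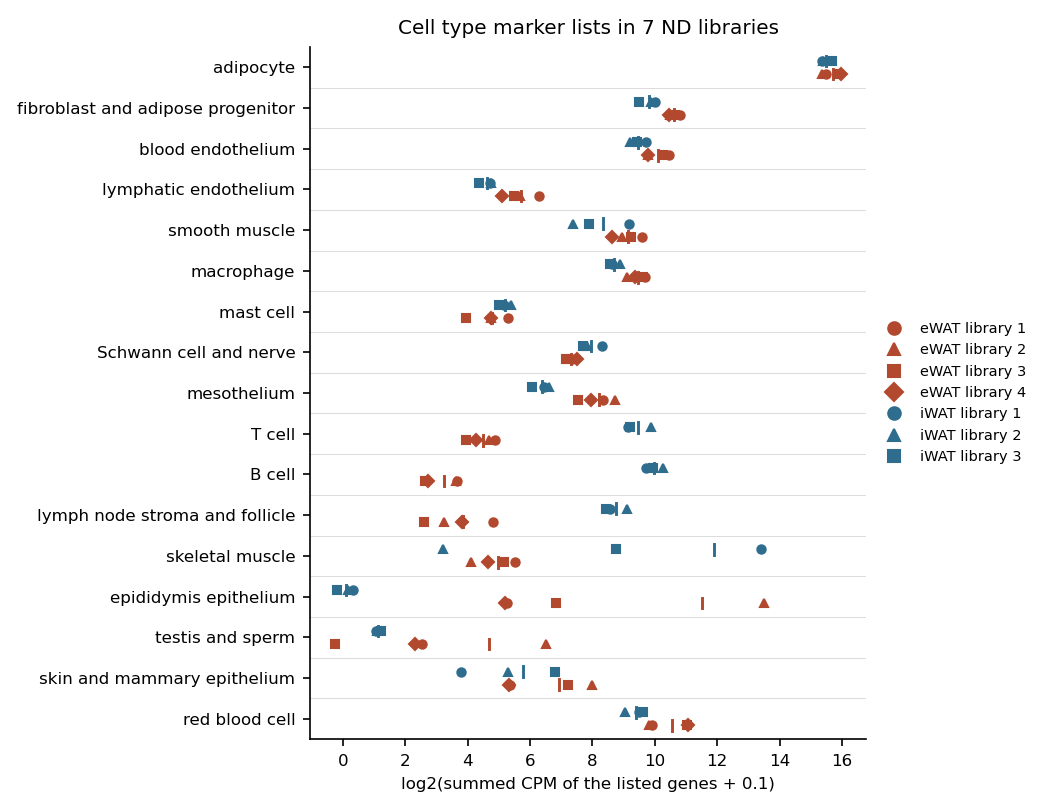
Summed level of 17 lists of cell type genes in each library, as log2(summed CPM + 0.1) on the horizontal axis, with eWAT in red, iWAT in blue short bars at the log2 of the group means and the marker shape giving the library number. The adipocyte sums overlap between depots, the epididymis sum of eWAT 2 reaches 11543 CPM, the skeletal muscle sum of iWAT 1 reaches 10879 CPM and the B cell sums do not overlap.

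Of 15361 genes whose mean over these libraries reached 1 CPM, 2996 (19.5%) were higher in eWAT and 2490 (16.2%) higher in iWAT at an adjusted p under 0.1 (edgeR quasi-likelihood test, Benjamini-Hochberg adjustment). Together 5486 genes (35.7%) were called, and a gene is called higher below only where it passed this test. In 3018 genes (19.6%) every eWAT library was above every iWAT library, and in 2631 (17.1%) the reverse held, 36.8% of genes in all. A difference of at least 1 on the log2 scale was called for 1259 genes (8.2%) higher in eWAT and 1264 (8.23%) higher in iWAT. The median log2 fold change of all genes, eWAT minus iWAT, was 0.03, and list medians below are to be read beside it. List counts below are likewise to be read beside the 19.5% and 16.2% of all genes, and some lie near these shares. Without iWAT 2 the counts were 1451 and 1480, and without iWAT 3 the eWAT count was 1972. Where a list below has 0 genes in a direction, at most 1 of its genes reached an unadjusted p under 0.05 there in the edgeR test and at most 1 was called by DESeq2. This does not hold with the library number as a replicate block, where some of these lists gained more calls, as given at the end. In bulk tissue, fewer cells of a type and less RNA per cell cannot be told apart, which holds for every gene and list below.

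The lists of other tissues gave calls that rest on the libraries named above. Of 11 tested epididymis genes (of 30), 4 were higher in eWAT (0 to 8 with 1 library left out, lowest without iWAT 2). The median log2 fold change of the 11 was 12.86, or 9.89 with genes absent from iWAT set to their lower bound. Without eWAT 2 only 4 passed the filter, of which 2 were higher in eWAT. Of 6 tested sperm genes 4 were higher in eWAT (median 8.53, or 7.11 at the bounds, 0 to 6 with 1 library left out, lowest without eWAT 2, iWAT 1, iWAT 2 or iWAT 3). All 14 tested skeletal muscle genes were higher in iWAT (median -8.55), but in only 3 were all 3 iWAT libraries above eWAT, and the count was 7 to 14 with 1 library left out, lowest without iWAT 1 (9 without eWAT 4). *Acta1*, skeletal actin, was at 33.2, 9.49, 28.8 and 18.4 CPM in eWAT and 1639, 1.67 and 58.7 CPM in iWAT, and its log2 fold change moved from -4.66 to -0.43 without iWAT 1. It was not called then, nor without any 1 of the eWAT libraries. Of 10 tested genes of skin and mammary epithelium 1, *Krt7*, was higher in eWAT and 0 in iWAT.

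**Figure D2:**
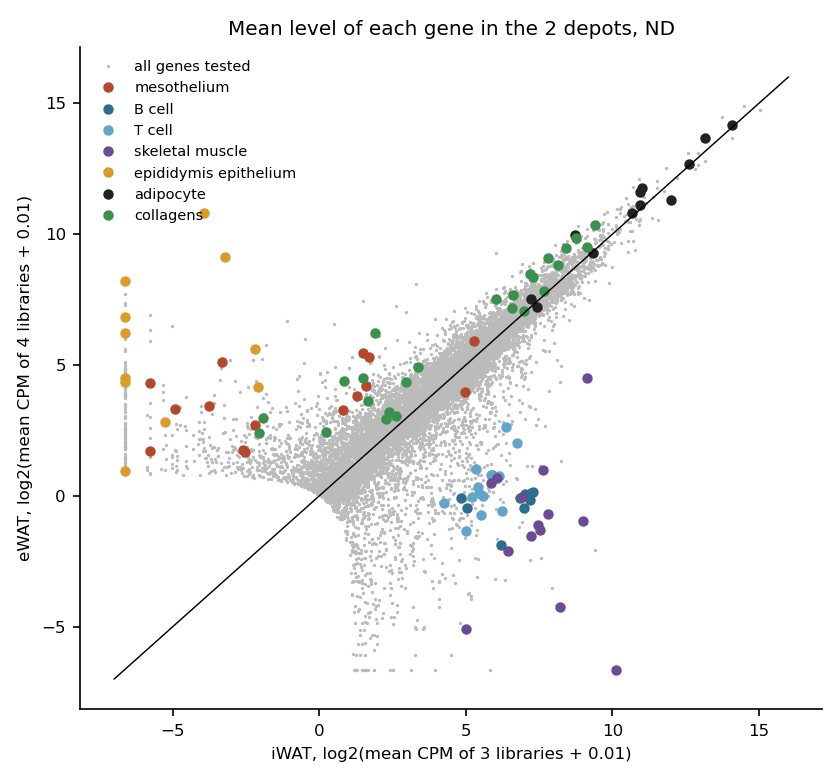
Mean level of each of the 15361 genes in eWAT (vertical axis, 4 libraries) against iWAT (horizontal axis, 3 libraries), as log2(mean CPM + 0.01), with genes of named lists in colour. B cell and muscle genes lie far on the iWAT side, mesothelium and epididymis genes far on the eWAT side, and adipocyte genes near the diagonal, with a median log2 fold change of 0.14.

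The 12 protein-coding genes with the largest difference towards eWAT, among those at 10 CPM or more that did not overlap and were on no list of another tissue, were of several kinds. *Msln* (mesothelin) and *Upk3b* (uroplakin 3B) are surface proteins of mesothelium, and *Agt* encodes angiotensinogen, the precursor of angiotensin. A further 8 were highest in eWAT 2. *Eddm3b*, *C4bp*, *Wfdc8*, *Pou3f3*, *Ptgds*, *Prom1* and *Mum1l1* were at 61.7 to 304 CPM there and at 0.113 to 38.5 CPM in the other 3 eWAT libraries. *Lrp2*, a large endocytic receptor, was at 19.6, 98.9, 2.39 and 26.6 CPM in eWAT and 0, 0 and 0.601 CPM in iWAT. Without eWAT 2, *Mum1l1* fell to a log2 fold change of 1.0 and was no longer called. *Eddm3b*, *C4bp*, *Wfdc8*, *Ptgds*, *Prom1* and *Mum1l1* were not called without iWAT 2, all but *Prom1* also without iWAT 3, and *Eddm3b*, *C4bp*, *Ptgds* and *Mum1l1* without iWAT 1. *Eddm3b* also lost the call without eWAT 1 or eWAT 3, and *C4bp* without eWAT 3. The part of epididymal tissue in these 8 genes was not tested.

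*Agt* was at 215, 265, 273 and 337 CPM in eWAT and 14.9, 6.26 and 8.24 CPM in iWAT (log2 fold change 4.80 ± 0.36 SE, adjusted p = 2.18e-04). Every eWAT library was more than 10 times above every iWAT library. A second set was chosen after the values were seen, by the smallest adjusted p in the eWAT direction. It was drawn only from protein-coding genes at 10 CPM or more that did not overlap and were on no list of another tissue. *Penk*, the precursor of the enkephalin peptides, led this set, at 64.6, 68.2, 75.1 and 70.2 CPM in eWAT and 4.43, 3.92 and 3.97 CPM in iWAT (log2 fold change 4.08 ± 0.11 SE, adjusted p = 1.30e-05). *Gdf10*, a growth factor of the TGF-beta family, was at 50.3, 45.9, 38.3 and 47.6 CPM in eWAT and 8.88, 10.3 and 8.75 CPM in iWAT (log2 fold change 2.29 ± 0.13 SE, adjusted p = 9.24e-05). *Ccbe1*, needed to process the lymphatic growth factor VEGF-C, was at 20.4, 22.1, 19.3 and 19.3 CPM in eWAT and 1.19, 1.32 and 0.673 CPM in iWAT (log2 fold change 4.25 ± 0.27 SE, adjusted p = 1.28e-04). These 3 genes varied little between the eWAT libraries, eWAT 2 included. A choice by the smallest adjusted p favours genes of small spread. *Thbd* (thrombomodulin, an anticoagulant receptor), *Mylk* (smooth muscle myosin light chain kinase), *Gas6* (ligand of TAM receptors), *Spock2*, *Sfrp1*, *Cd320* and *Col4a5* completed the set, with log2 fold changes of 1.32 to 3.02.

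Factors of visceral fat were the first list examined. Of 12 visceral-associated transcription factors 7 reached the filter, and 6 were higher in eWAT, 0 in iWAT (median log2 fold change 1.56). *Wt1*, the mesothelial factor, was at 11.9, 10.9, 7.94 and 9.20 CPM in eWAT and 0.0495, 0.0203 and 0 CPM in iWAT (adjusted p = 1.94e-04). The reads, 3 of iWAT against 1930 of eWAT, gave a ratio of 445 (95% counting interval 152 to 2158), where the interval covers counting error only. *Tcf21*, a factor of visceral stromal cells, was at 7.21, 4.23, 3.96 and 4.31 CPM in eWAT and had no read in iWAT (adjusted p = 5.63e-04), at least 220.0-fold higher against a floor of 3 reads over the iWAT group. *Bnc1*, a mesothelial zinc finger protein, had reads as 1 of iWAT against 622 of eWAT, a ratio of 429.9 (95% counting interval 76.9 to 17009). All 3 were near absence in iWAT. *Osr1*, of intermediate mesoderm, was graded instead, at 15.2, 15.6, 17.2 and 14.4 CPM in eWAT and 6.46, 4.62 and 4.81 CPM in iWAT (log2 fold change 1.56 ± 0.18 SE, adjusted p = 0.00129). *Gata6* (log2 fold change 0.71 ± 0.17 SE, adjusted p = 0.0254) and *Nr2f1* (log2 fold change 0.71 ± 0.19 SE, adjusted p = 0.0345) were also present in both depots and did not overlap. *Tbx18* was at 7.26, 5.24, 5.45 and 4.08 CPM in eWAT and 8.69, 4.37 and 5.67 CPM in iWAT and overlapped. *Isl1* and *Gata5* lay under the filter, yet had reads in all 4 eWAT libraries (1.34, 0.945, 1.41 and 1.45 CPM and 1.51, 0.728, 0.930 and 1.31 CPM) and none in iWAT, which is at least 55.8-fold and at least 49.5-fold higher. *Gata4* and *Hand2* did not pass 0.788 CPM in any library and *Hand1* had no reads.

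Mesothelium genes followed. Of 15 genes 11 were higher in eWAT and 1 in iWAT (median 4.26), and the eWAT count was 9 to 12 with 1 library left out, lowest without eWAT 1 or iWAT 3. The summed level was 323, 418, 184 and 249.7 CPM in eWAT and 88.1, 97.2 and 66.7 CPM in iWAT. *Upk3b* was at 50.02, 31.5, 24.3 and 34.4 CPM in eWAT and 0.272, 0 and 0 CPM in iWAT (log2 fold change 8.63 ± 1.01 SE, adjusted p = 0.00143). *Msln* was at 31.8, 16.1, 17.6 and 13.5 CPM in eWAT and 0.0247, 0 and 0 CPM in iWAT (adjusted p = 1.55e-04), its iWAT value resting on 1 read. *Upk1b* (log2 fold change 7.36 ± 0.55 SE, adjusted p = 2.06e-04) and *Gpm6a*, a membrane glycoprotein, at 30.5, 15.5, 12.3 and 15.3 CPM in eWAT and 3.19, 3.52 and 2.28 CPM in iWAT (log2 fold change 2.62 ± 0.37 SE, adjusted p = 0.00336), did not overlap either. All 4 genes were present in every eWAT library. The keratins behaved less evenly, as *Krt18* was at 20.7, 113, 2.31 and 22.9 CPM in eWAT and 0.495, 8.70 and 0.433 CPM in iWAT (adjusted p = 0.127) and highest in eWAT 2, and *Krt19* was at 16.5, 16.8, 5.92 and 16.5 CPM in eWAT and 0.322, 6.93 and 0 CPM in iWAT (adjusted p = 0.232). *Gpm6b*, related to *Gpm6a* in sequence, was higher in iWAT (log2 fold change -0.99 ± 0.16 SE, adjusted p = 0.00608).

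Of 16 limb and subcutaneous-associated factors 10 were tested and 7 were higher in iWAT, 0 in eWAT (median -2.12). The iWAT count was 4 to 7 with 1 library left out, lowest without iWAT 2. *Shox2*, a homeobox factor of the proximal limb, was at 0.922, 0.610, 0.850 and 1.22 CPM in eWAT and 20.5, 20.6 and 23.8 CPM in iWAT (log2 fold change -4.58 ± 0.26 SE, adjusted p = 8.99e-05), nearly the same in each library of a depot. *Tbx15*, a T-box factor of limb and skin mesenchyme, was at 0.0565, 0.256, 0.452 and 0.187 CPM in eWAT and 33.3, 14.6 and 18.8 CPM in iWAT (log2 fold change -6.57 ± 0.64 SE, adjusted p = 6.64e-04). *En1*, of ventral limb ectoderm and dermis, was at 0.0188, 0.118, 0.319 and 0.0622 CPM in eWAT and 2.28, 2.87 and 3.03 CPM in iWAT (log2 fold change -4.41 ± 0.79 SE, adjusted p = 0.00841). None of the 3 overlapped. *Lhx8*, a LIM homeobox factor, had no read in the 4 eWAT libraries and was at 4.53, 5.08 and 7.31 CPM in iWAT (adjusted p = 0.00104), at least 355-fold higher. *Tbx5* (-2.43), *Tbx1* (-1.81) and *Twist2* (-0.94) were higher in iWAT by smaller log2 fold changes. *Prrx1*, a general limb and connective tissue factor, was at 34.9, 24.8, 27.2 and 23.4 CPM in eWAT and 51.7, 40.5 and 29.2 CPM in iWAT and *Irx3* at 11.6, 4.73, 9.43 and 9.25 CPM in eWAT and 5.91, 4.76 and 6.06 CPM in iWAT, and neither was called. *Pitx1* and *Tbx4*, the hindlimb factors, had at most a few reads per library, and *Pax3* none.

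**Figure D3:**
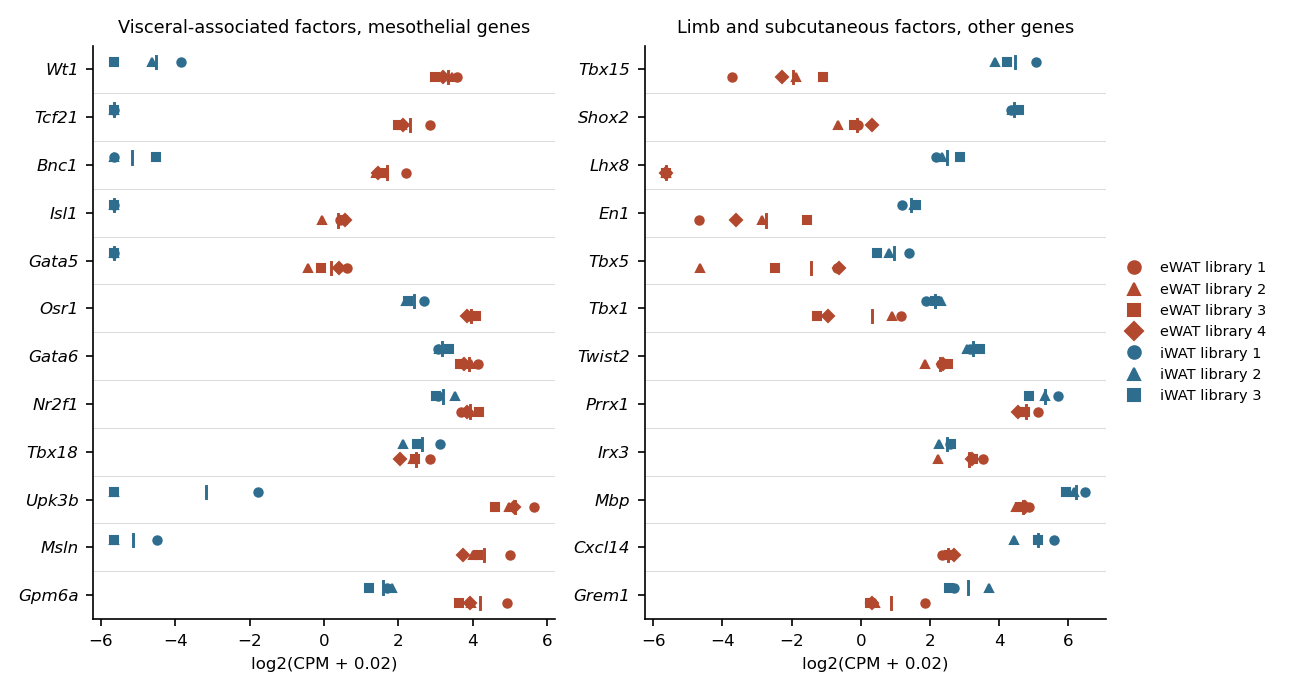
Level of 24 depot-associated genes in each library, as log2(CPM + 0.02) on the horizontal axis, with eWAT in red, iWAT in blue and short bars at the group means. *Wt1*, *Tcf21* and *Bnc1* lie at or near the floor of the axis in iWAT and *Lhx8* in eWAT, *Tbx15* and *Shox2* are separated by wide gaps, and *Tbx18*, *Irx3* and *Prrx1* overlap.

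Hox genes pattern the body from anterior (low paralogue numbers) to posterior (high numbers). Of 39 Hox genes 25 were tested, and 10 were higher in eWAT (4 to 11 with 1 library left out, lowest without iWAT 2), 4 in iWAT. Among the genes called, the direction went with the paralogue number, with 1 exception. Of 19 tested genes of groups 1 to 8, 9 were higher in eWAT and 0 in iWAT (median 0.64, 3 to 10 with 1 library left out, lowest without iWAT 2). Of 6 of groups 9 to 13, 1 was higher in eWAT and 4 in iWAT (median -2.07). This split was drawn with the gene values known. The 4 posterior genes were *Hoxc10*, at 0.715, 0.610, 0.478 and 0.726 CPM in eWAT and 19.2, 22.3 and 24.0 CPM in iWAT (log2 fold change -5.10 ± 0.21 SE, adjusted p = 5.32e-05), *Hoxa10*, at 0.659, 0.709, 0.266 and 0.269 CPM in eWAT and 12.8, 13.8 and 13.5 CPM in iWAT (log2 fold change -4.79 ± 0.42 SE, adjusted p = 4.30e-04), *Hoxa9*, at 3.69, 3.96, 0.186 and 2.38 CPM in eWAT and 17.9, 24.1 and 25.8 CPM in iWAT (log2 fold change -3.14 ± 0.78 SE, adjusted p = 0.0264), and *Hoxc9*, at 5.81, 5.69, 7.28 and 5.29 CPM in eWAT and 12.1, 10.8 and 13.2 CPM in iWAT (log2 fold change -1.0 ± 0.18 SE, adjusted p = 0.00811). None overlapped. The single exception among the called genes was *Hoxb9*, higher in eWAT at 12.6, 8.05, 3.80 and 8.29 CPM in eWAT and 1.46, 1.79 and 1.51 CPM in iWAT (log2 fold change 2.36 ± 0.41 SE, adjusted p = 0.00766). Within cluster C, the sign thus turned between *Hoxc8*, at 160.2, 176, 252 and 219 CPM in eWAT and 140.5, 124 and 131 CPM in iWAT (log2 fold change 0.61 ± 0.17 SE, adjusted p = 0.0367), and *Hoxc9*. In the fit of all 25 libraries *Hoxc8* and *Hoxa5* were no longer called (adjusted p = 0.222 and 0.130), nor was *Hoxc8* without iWAT 2. In cluster B, 5 of 8 tested genes were higher in eWAT and 0 in iWAT (1 to 6 with 1 library left out, lowest without iWAT 2). In cluster A the counts were 1 and 2 of 8, in cluster C 2 and 2 of 6, and in cluster D 2 and 0 of 3. Several cluster B genes were highest in eWAT 2, as *Hoxb8* at 17.7, 50.2, 13.8 and 16.7 CPM in eWAT and 10.4, 8.70 and 11.3 CPM in iWAT. *Hoxd3* (log2 fold change 2.55 ± 0.68 SE, adjusted p = 0.0339) and *Hoxd8* (log2 fold change 1.2 ± 0.26 SE, adjusted p = 0.0162) were higher in eWAT. Without eWAT 2, *Hoxd3* fell under the filter. Genes of groups 11 to 13 had few or no reads in either depot.

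**Figure D4:**
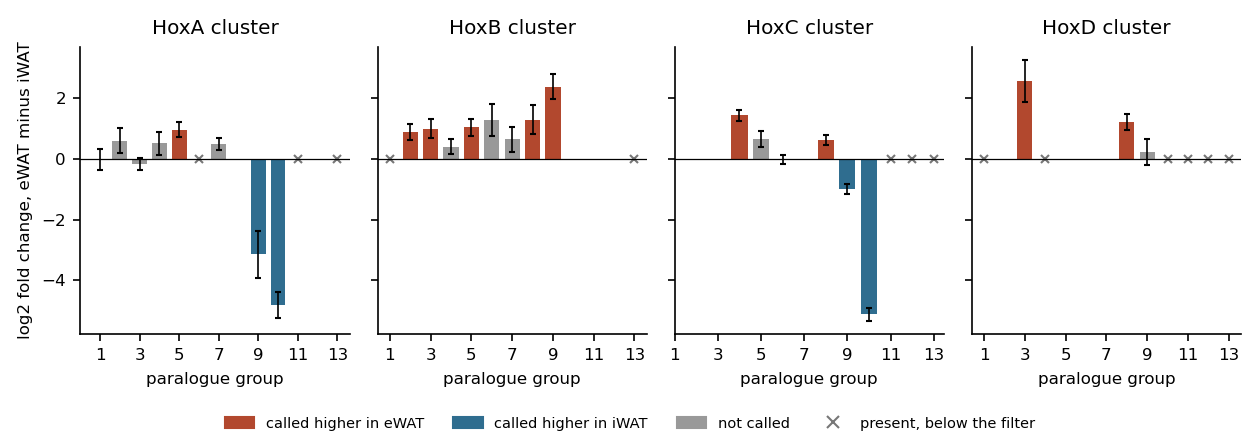
Log2 fold change, eWAT minus iWAT, of each Hox gene (vertical axis, bars are SE) by paralogue group (horizontal axis) in the 4 clusters, with genes below 1 CPM shown as crosses. Genes of groups 1 to 8 lie near or above 0, while *Hoxa9*, *Hoxa10*, *Hoxc9* and *Hoxc10* lie below, down to -5.10, and *Hoxb9* lies at 2.36.

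Adipocyte genes were compared next, and 2 of 12 were higher in eWAT and 0 in iWAT, against 19.5% and 16.2% of all genes. With the library number as a replicate block these counts were 4 and 3. *Adipoq* (adiponectin) was at 2958, 2517, 3607 and 3433 CPM in eWAT and 2013, 1901 and 1975 CPM in iWAT (log2 fold change 0.67 ± 0.16 SE, adjusted p = 0.0241). *Cidec*, a lipid droplet fusion protein, was also higher (log2 fold change 0.77 ± 0.22 SE, adjusted p = 0.0441). Without iWAT 2 neither was called (*Adipoq* adjusted p = 0.102). *Fabp4*, *Plin1* and *Lipe* had log2 fold changes of 0.11, 0.16 and 0.13 and were not called. *Lep* (leptin) was at 1853, 727, 1033 and 371 CPM in eWAT and 657, 247 and 374 CPM in iWAT, a spread within eWAT as wide as the difference between depots (log2 fold change 1.22 ± 0.56 SE, adjusted p = 0.148). It was called without eWAT 4 (adjusted p = 0.0739). *Nnat* (neuronatin), an imprinted gene known to follow adiposity, varied likewise, at 1485, 1110.2, 2059.6 and 529 CPM in eWAT and 1598, 776 and 995 CPM in iWAT.

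Among the adipokine list, 6 of 15 tested genes were higher in eWAT and 0 in iWAT (median 0.87). Beside *Agt* and *Adipoq* these included *Rbp4*, the retinol carrier of plasma, at 435, 394, 667 and 668 CPM in eWAT and 205, 248 and 296 CPM in iWAT (log2 fold change 1.12 ± 0.24 SE, adjusted p = 0.0170), *Metrnl* (log2 fold change 1.23 ± 0.40 SE, adjusted p = 0.0626) and the matrix protein *Sparcl1* (log2 fold change 0.88 ± 0.19 SE, adjusted p = 0.0176). *Retn* (resistin), *Rarres2* (chemerin) and *Cfd* (adipsin) were not called, with log2 fold changes of 0.53, -0.06 and 0.08.

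Collagens form much of the extracellular matrix. Of 25 tested collagen genes 19 were higher in eWAT and 0 in iWAT (median 1.10), against 19.5% of all genes. The count was 14 to 21 with 1 library left out, lowest without iWAT 2. All 6 collagen IV genes, which form basement membranes, were higher in eWAT. *Col4a1* was at 1529, 1168, 1295 and 1254 CPM in eWAT and 856, 571 and 622 CPM in iWAT (log2 fold change 0.94 ± 0.18 SE, adjusted p = 0.0107), and *Col4a5* at 28.5, 24.0, 17.0 and 20.8 CPM in eWAT and 3.09, 2.91 and 2.36 CPM in iWAT (log2 fold change 3.02 ± 0.23 SE, adjusted p = 2.30e-04). *Col4a6*, paired with *Col4a5* head to head on the X chromosome, was at 9.22, 11.2, 4.97 and 6.09 CPM in eWAT and 0.421, 0.244 and 0.0961 CPM in iWAT (log2 fold change 4.94 ± 0.59 SE, adjusted p = 0.00161). Of the other types, *Col8a2* was at 7.96, 3.92, 1.41 and 7.71 CPM in eWAT and 0.445, 0.142 and 0.0961 CPM in iWAT (log2 fold change 4.52 ± 0.85 SE, adjusted p = 0.0103), and the collagen VI gene *Col6a5* at 96.4, 90.4, 37.3 and 71.0 CPM in eWAT and 3.44, 4.11 and 3.70 CPM in iWAT (log2 fold change 4.30 ± 0.36 SE, adjusted p = 3.31e-04). *Col6a6* was higher too (log2 fold change 3.56 ± 0.29 SE, adjusted p = 2.81e-04), and 4 of 5 collagen VI genes were. *Col15a1*, of the basement membrane zone, was higher (log2 fold change 1.30 ± 0.12 SE, adjusted p = 5.92e-04). The fibrillar genes differed less, as *Col1a1* and *Col3a1* had log2 fold changes of 0.18 and 0.36 and were not called.

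Fibroblast and progenitor genes were mixed. Of 17 genes 9 were higher in eWAT and 3 in iWAT, and the eWAT count was 5 to 10 with 1 library left out, lowest without iWAT 2 or iWAT 3. *Dcn* (decorin) was at 924, 755, 937 and 806 CPM in eWAT and 411, 389 and 252 CPM in iWAT (log2 fold change 1.29 ± 0.19 SE, adjusted p = 0.00428), and *Fmo2*, a monooxygenase of fibroblasts, at 99.5, 88.4, 82.5 and 68.0 CPM in eWAT and 31.6, 23.5 and 33.5 CPM in iWAT (log2 fold change 1.52 ± 0.18 SE, adjusted p = 0.00138). *Pdgfra* (log2 fold change 0.37), *Pi16* (0.27) and *Dpp4*, markers of stromal cells and of early progenitors, overlapped and were not called. In the iWAT direction stood *Cxcl14*, a chemokine, at 5.06, 5.65, 5.90 and 6.47 CPM in eWAT and 47.9, 21.6 and 34.8 CPM in iWAT (log2 fold change -2.59 ± 0.26 SE, adjusted p = 7.49e-04). *Cd55* (log2 fold change -1.28 ± 0.18 SE, adjusted p = 0.00359) and *Icam1* (log2 fold change -0.91 ± 0.22 SE, adjusted p = 0.0256), also higher in iWAT, are expressed by lymphocytes and endothelium too.

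Secreted signals were counted by pathway. In the list of BMP, GDF and activin signalling, 13 of 19 tested genes were higher in eWAT and 2 in iWAT (median 1.19). Of the ligands, *Bmp4* was at 12.8, 10.1, 9.70 and 7.19 CPM in eWAT and 3.24, 4.15 and 3.46 CPM in iWAT (log2 fold change 1.46 ± 0.24 SE, adjusted p = 0.00636), and *Bmp2*, *Bmp5* and *Bmp6* were higher as well, with log2 fold changes of 0.78 to 1.98. *Inhba*, the activin A subunit, was higher in eWAT (log2 fold change 2.28 ± 0.57 SE, adjusted p = 0.0265). Several antagonists were higher in eWAT too. *Nog* (noggin) was at 6.29, 2.97, 7.15 and 4.04 CPM in eWAT and 0.495, 0.0203 and 0.0240 CPM in iWAT (log2 fold change 4.83 ± 1.11 SE, adjusted p = 0.0207), *Chrdl1* at 205, 162, 184 and 142 CPM in eWAT and 74.2, 38.9 and 32.2 CPM in iWAT (log2 fold change 1.84 ± 0.30 SE, adjusted p = 0.00631), and *Fstl3*, which binds activin, was higher too (log2 fold change 2.04 ± 0.44 SE, adjusted p = 0.0171). The antagonist *Grem1* was higher in iWAT instead, at 3.61, 1.30, 1.2 and 1.22 CPM in eWAT and 6.53, 13.1 and 5.89 CPM in iWAT (log2 fold change -2.21 ± 0.51 SE, adjusted p = 0.0210). *Mstn* (myostatin), a product of muscle, was at 7.42, 0.0203 and 0.0721 CPM in iWAT and moved with the muscle genes of iWAT 1.

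For WNT signalling, 7 of 15 tested genes were higher in eWAT and 1 in iWAT (median 1.42). The ligands *Wnt2b* (log2 fold change 3.45 ± 0.42 SE, adjusted p = 0.00169) and *Wnt5b* (log2 fold change 1.92 ± 0.35 SE, adjusted p = 0.00916) were higher in eWAT. *Rspo1*, an R-spondin that strengthens WNT signals, was at 29.3, 18.0, 11.4 and 26.3 CPM in eWAT and 3.09, 4.31 and 2.91 CPM in iWAT (log2 fold change 2.63 ± 0.37 SE, adjusted p = 0.00318). The secreted inhibitors *Sfrp1*, at 26.3, 18.8, 18.8 and 26.3 CPM in eWAT and 2.77, 2.76 and 3.22 CPM in iWAT (log2 fold change 2.95 ± 0.20 SE, adjusted p = 1.58e-04), *Sfrp2* and *Sfrp4* were higher too. *Sfrp5* spanned 14.2 to 286 CPM within eWAT and was not called (log2 fold change 1.45 ± 1.06 SE, adjusted p = 0.341). *Dkk2* was higher in iWAT (log2 fold change -1.74 ± 0.46 SE, adjusted p = 0.0323), and *Axin2*, a target of the pathway, was not called (log2 fold change 0.59 ± 0.25 SE, adjusted p = 0.116).

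Of 11 tested genes of IGF signalling 4 were higher in eWAT and 2 in iWAT (median 0.62). *Igf1* was at 191, 194, 205 and 280.3 CPM in eWAT and 141, 150.2 and 110.3 CPM in iWAT (log2 fold change 0.70 ± 0.18 SE, adjusted p = 0.0285). The binding proteins differed in direction, with *Igfbp6* higher in eWAT (log2 fold change 1.48 ± 0.22 SE, adjusted p = 0.00406) and *Igfbp3* higher in iWAT (log2 fold change -1.04 ± 0.27 SE, adjusted p = 0.0304). The imprinted RNA *H19* was at 28.7, 0.813 and 0.697 CPM in iWAT, high in the library with muscle genes.

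Retinoic acid is made from retinol in stromal and mesothelial cells. Of 16 tested retinoid genes 8 were higher in eWAT and 2 in iWAT (median 0.41). All 3 retinaldehyde dehydrogenases, the enzymes of the last step, were higher in eWAT without overlap. *Aldh1a1* was at 392, 699, 393 and 353 CPM in eWAT and 178, 76.4 and 111 CPM in iWAT (log2 fold change 1.92 ± 0.36 SE, adjusted p = 0.0103), *Aldh1a2* at 11.1, 10.3, 5.76 and 3.96 CPM in eWAT and 1.91, 1.30 and 1.95 CPM in iWAT (log2 fold change 2.18 ± 0.43 SE, adjusted p = 0.0116) and *Aldh1a3* at 22.9, 13.5, 16.4 and 15.9 CPM in eWAT and 4.33, 4.21 and 3.70 CPM in iWAT (log2 fold change 2.07 ± 0.22 SE, adjusted p = 9.22e-04). Of the receptors, *Rara* (log2 fold change -0.61 ± 0.20 SE, adjusted p = 0.0580) and *Rxrg* (log2 fold change -0.45 ± 0.16 SE, adjusted p = 0.0745) were higher in iWAT, and *Rarb*, *Rarg* and *Rxra* were not called, with log2 fold changes of -0.19 to 0.33.

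Of 12 tested steroid genes 3 were higher in eWAT and 1 in iWAT (median 0.26), against 19.5% and 16.2% of all genes. *Srd5a2*, which converts testosterone to dihydrotestosterone, was at 6.29, 23.5, 1.14 and 6.24 CPM in eWAT and 0, 0.0813 and 0.0721 CPM in iWAT (log2 fold change 7.40 ± 1.36 SE, adjusted p = 0.00941), highest in the library with epididymal genes but present in all 4. *Akr1c18*, an enzyme that degrades progesterone, was higher in iWAT (log2 fold change -3.28 ± 0.97 SE, adjusted p = 0.0453). *Esr1*, *Nr3c1* and *Hsd11b1* were not called (log2 fold changes 0.56, 0.27 and 0.01).

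Genes of blood vessels followed. Of 8 smooth muscle genes 7 were higher in eWAT (median 1.37), and 1, *Des*, was higher in iWAT at 308, 32.3 and 43.4 CPM, with iWAT 1 above the others. *Des* is also a gene of skeletal muscle, and it was not called without iWAT 1 or without any 1 of the eWAT libraries. *Myh11*, smooth muscle myosin, was at 159.8, 127, 125 and 98.3 CPM in eWAT and 57.4, 31.6 and 41.2 CPM in iWAT (log2 fold change 1.56 ± 0.24 SE, adjusted p = 0.00478). Of 9 genes of blood endothelium 6 were higher in eWAT and 0 in iWAT, including *Cdh5* (log2 fold change 0.85 ± 0.21 SE, adjusted p = 0.0241) and *Vwf* (log2 fold change 1.37 ± 0.29 SE, adjusted p = 0.0150). *Pecam1*, which leukocytes also express, was not called (log2 fold change 0.33 ± 0.21 SE, adjusted p = 0.285). Haemoglobin genes and *Alas2*, which mark red blood cells, were all higher in eWAT (5 of 5), with sums of 954, 907, 2080.1 and 2116 CPM in eWAT and 720.4, 528 and 783 CPM in iWAT. The count was 0 to 5 with 1 library left out, lowest without iWAT 2. It was 1 without eWAT 3 or eWAT 4 and 2 without iWAT 1 or iWAT 3. Reads of the haemoglobin copies can be split between near-identical genes. The part of retained blood was not tested. Of 5 lymphatic genes 3 were higher in eWAT, but *Prox1*, the defining factor, was not called (log2 fold change -0.96 ± 0.63 SE, adjusted p = 0.289). The lymphatic count was 1 to 3 with 1 library left out, lowest without iWAT 2 or iWAT 3.

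Macrophage genes were higher in eWAT for 11 of 16 and in iWAT for 1 (median 0.69). *Adgre1* (F4/80) was at 46.3, 21.9, 26.2 and 24.6 CPM in eWAT and 12.2, 8.38 and 7.84 CPM in iWAT (log2 fold change 1.65 ± 0.31 SE, adjusted p = 0.010). *Mertk*, a receptor for apoptotic cells, was at 78.0, 86.0, 119 and 88.1 CPM in eWAT and 33.0, 32.4 and 30.5 CPM in iWAT (log2 fold change 1.54 ± 0.16 SE, adjusted p = 7.76e-04), and *Cd163*, a haemoglobin scavenger receptor, was higher as well (log2 fold change 1.64 ± 0.27 SE, adjusted p = 0.00603). *Trem2*, a lipid receptor, was low in both depots and higher in eWAT at 13.7, 5.47, 5.18 and 2.4 CPM in eWAT and 1.11, 0.671 and 0.553 CPM in iWAT (log2 fold change 3.10 ± 0.65 SE, adjusted p = 0.0148). The exception was *Timd4*, a phosphatidylserine receptor of resident macrophages, at 0.979, 0.591, 3.29 and 1.97 CPM in eWAT and 30.7, 58.3 and 39.5 CPM in iWAT (log2 fold change -4.66 ± 0.59 SE, adjusted p = 0.00204), 25.1-fold by the means. *Timd4* is also expressed by lymph node macrophages, and its level in iWAT moved with the B cell sum, both highest in iWAT 2. Their relation was not tested. Of 6 tested mast cell genes 2, the proteases *Mcpt4* (log2 fold change -2.34 ± 0.35 SE, adjusted p = 0.00404) and *Tpsb2*, were higher in iWAT and 1, *Hdc*, in eWAT.

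Of 16 tested complement and acute phase genes 9 were higher in eWAT and 2 in iWAT (median 0.89). *C7*, of the membrane attack complex, was at 98.4, 118, 73.7 and 146 CPM in eWAT and 21.7, 17.3 and 7.71 CPM in iWAT (log2 fold change 2.81 ± 0.40 SE, adjusted p = 0.00345). *Lbp*, which binds bacterial lipopolysaccharide, was higher too (log2 fold change 2.19 ± 0.43 SE, adjusted p = 0.0118). *Hp* (haptoglobin) was at 2556, 2770.0, 3172 and 2119 CPM in eWAT and 1256, 1488 and 1442 CPM in iWAT (log2 fold change 0.93 ± 0.17 SE, adjusted p = 0.00945). *C3*, the central component, was higher in iWAT by a small difference (log2 fold change -0.46 ± 0.16 SE, adjusted p = 0.0757).

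Fuel metabolism held the gene with the largest difference towards iWAT among those at 10 CPM or more and on no list of another tissue. *Ucp1*, which uncouples respiration in beige and brown adipocytes, was at 0.132, 0.0394, 0.133 and 0 CPM in eWAT and 2.52, 118 and 616 CPM in iWAT (log2 fold change -11.64 ± 1.96 SE, adjusted p = 0.00660). The eWAT libraries had 0 to 0.133 CPM, and the iWAT libraries differed among themselves from 2.52 to 616 CPM. Of 24 tested thermogenic genes 17 were higher in iWAT and 1 in eWAT (median -1.82). The iWAT count was 11 to 15 with 1 library left out, lowest without iWAT 3. *Cidea*, a droplet protein of brown adipocytes, was at 4.89, 3.78, 3.51 and 13.5 CPM in eWAT and 68.9, 156 and 394 CPM in iWAT (log2 fold change -5.00 ± 0.75 SE, adjusted p = 0.00417). *Cox8b* was at 6.94, 6.58, 7.28 and 9.45 CPM in eWAT and 99.1, 159.5 and 267 CPM in iWAT (log2 fold change -4.53 ± 0.34 SE, adjusted p = 2.19e-04), and *Cox7a1* at 3.88, 2.72, 3.59 and 5.16 CPM in eWAT and 18.7, 26.6 and 79.4 CPM in iWAT (log2 fold change -3.44 ± 0.51 SE, adjusted p = 0.00407). *Cox8b* and *Cox7a1* are cytochrome oxidase isoforms that muscle uses too. Both were above every eWAT library in iWAT 2, whose muscle sum was 9.21 CPM. The part of muscle in their iWAT levels was not tested. *Otop1*, a proton channel of brown fat, was at 2.31, 0.197, 0.558 and 1.41 CPM in eWAT and 28.1, 50.6 and 87.6 CPM in iWAT (log2 fold change -5.61 ± 0.80 SE, adjusted p = 0.00349), and *Dio2*, which activates thyroid hormone, at 0.847, 0.492, 0.106 and 0.622 CPM in eWAT and 1.19, 8.29 and 35.2 CPM in iWAT (log2 fold change -4.83 ± 1.12 SE, adjusted p = 0.0210). *Ucp1*, *Cidea*, *Cox8b*, *Dio2* and *Otop1* were each lowest in iWAT 1 and highest in iWAT 3. Regulators differed less. *Ppargc1a* was higher in iWAT (log2 fold change -0.84 ± 0.28 SE, adjusted p = 0.0675), while *Prdm16* (log2 fold change -0.62 ± 0.27 SE, adjusted p = 0.126) and *Ebf2* (log2 fold change 0.38 ± 0.17 SE, adjusted p = 0.139) were not called. *Adrb3*, the adrenergic receptor through which cold acts on adipocytes, was higher in eWAT, at 905, 1003, 1268 and 1491 CPM in eWAT and 553, 605 and 527 CPM in iWAT (log2 fold change 1.05 ± 0.19 SE, adjusted p = 0.00918). *Ckmt2*, a muscle creatine kinase, was at 44.7, 0 and 1.27 CPM in iWAT and followed the muscle genes.

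Of 20 genes of fatty acid oxidation 10 were higher in iWAT and 1 in eWAT (median -0.67), against 16.2% of all genes. *Acadl*, the long-chain acyl-CoA dehydrogenase, was at 287, 231, 301 and 372 CPM in eWAT and 526, 558 and 940.0 CPM in iWAT (log2 fold change -1.18 ± 0.24 SE, adjusted p = 0.0145), and *Acadvl* at 189.9, 181, 236 and 265 CPM in eWAT and 300.5, 407 and 734 CPM in iWAT (log2 fold change -1.14 ± 0.30 SE, adjusted p = 0.0322). In both, iWAT 3 was highest and iWAT 1 and 2 were still above every eWAT library. The iWAT count was 5 to 15 with 1 library left out, lowest without eWAT 1 or iWAT 3, and highest without iWAT 1. The carnitine palmitoyltransferases split by isoform, since *Cpt1a*, the liver form, was higher in eWAT at 91.8, 65.0, 62.0 and 65.1 CPM in eWAT and 51.3, 42.9 and 36.5 CPM in iWAT (log2 fold change 0.70 ± 0.18 SE, adjusted p = 0.0290), and *Cpt1b*, the muscle and brown fat form, was higher in iWAT at 0.565, 0.571, 0.133 and 0.207 CPM in eWAT and 0.371, 1.61 and 3.58 CPM in iWAT (log2 fold change -2.31 ± 0.83 SE, adjusted p = 0.0790). Of 18 genes of the TCA cycle 6 were higher in iWAT (median -0.44, 2 to 8 with 1 library left out, lowest without iWAT 3). Without eWAT 1 or eWAT 3 the TCA count was 3. Of 22 nuclear subunits of the respiratory chain 5 were (median -0.45, 0 to 12 with 1 library left out, lowest without eWAT 1, eWAT 2, iWAT 2 or iWAT 3). It was 2 without eWAT 3 and highest without iWAT 1. With the library number as a replicate block, more genes of oxidation, TCA cycle and respiratory chain were higher in iWAT, as given at the end. *Idh3a*, of isocitrate dehydrogenase, was at 248, 212, 248 and 269.8 CPM in eWAT and 383, 395 and 579.8 CPM in iWAT (log2 fold change -0.89 ± 0.17 SE, adjusted p = 0.0107). Of 13 mitochondrially encoded subunits 1 was called, *mt-Co3*, which has few unique reads. Mitochondrial genes took 4.67% to 8.61% of counts in eWAT and 6.83% to 11.6% in iWAT, ranges that overlapped.

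**Figure D5:**
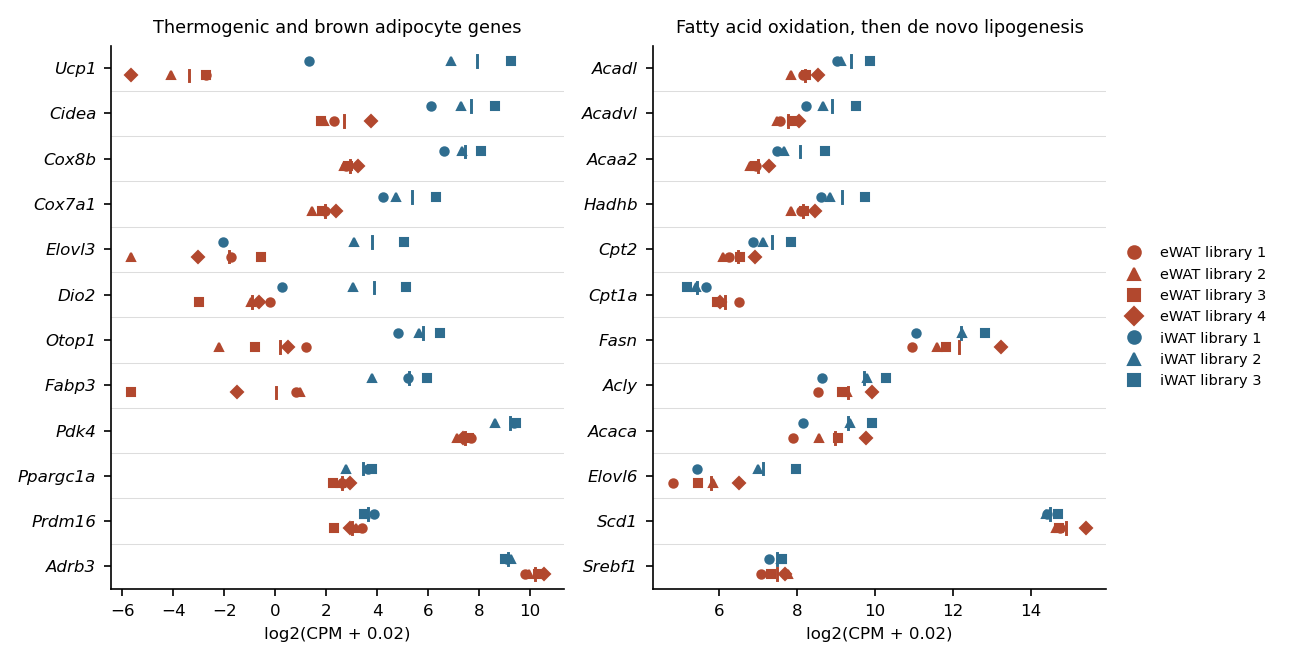
Level of 24 genes of thermogenesis, fatty acid oxidation and lipogenesis in each library, as log2(CPM + 0.02) on the horizontal axis, with eWAT in red, iWAT in blue and short bars at the group means. *Ucp1* ranges from 2.52 to 616 CPM in iWAT and does not pass 0.133 CPM in eWAT, *Acadl* is separated by a narrow gap, and *Fasn* and *Acaca* overlap.

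Few genes of fatty acid synthesis were called. Of 15 genes 1, the elongase *Elovl5*, was higher in eWAT and 0 in iWAT (median -0.04). *Fasn*, fatty acid synthase, was at 1984, 3076, 3605 and 9579 CPM in eWAT and 2106, 4767 and 7192 CPM in iWAT (log2 fold change -0.04 ± 0.60 SE, adjusted p = 0.967). *Acly*, ATP citrate lyase, was at 369, 627, 570.1 and 963 CPM in eWAT and 398, 890.1 and 1236 CPM in iWAT. Both were lowest in the libraries numbered 1 and highest in eWAT 4 and iWAT 3. With the library number as a replicate block, *Fasn* was called higher in iWAT (log2 fold change -0.57, edgeR adjusted p = 0.0922). A p that misses the threshold does not show that the depots were alike, and the SE of *Fasn* leaves room for a difference in either direction. Of 20 genes of lipolysis and lipid droplets 4 were higher in eWAT and 2 in iWAT (median 0.09, eWAT count 2 to 5 with 1 library left out, lowest without iWAT 2). Of all genes 19.5% were higher in eWAT and 16.2% in iWAT, so the eWAT count was near the share of all genes. *Npr1* (log2 fold change 0.70 ± 0.16 SE, adjusted p = 0.0189) and *Npr3* (log2 fold change 1.54 ± 0.55 SE, adjusted p = 0.0768), the signalling and clearance receptors of natriuretic peptides, were both higher in eWAT. *Plin5*, a droplet protein of oxidative tissues, was higher in iWAT at 5.55, 9.14, 2.82 and 6.09 CPM in eWAT and 11.5, 18.0 and 44.5 CPM in iWAT (log2 fold change -2.06 ± 0.53 SE, adjusted p = 0.0298). The lipases *Lipe*, *Pnpla2* and *Mgll* were not called, with log2 fold changes of 0.03 to 0.35.

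Lymphoid genes were high in all 3 iWAT libraries. B cell genes summed to 12.5, 12.2, 6.16 and 6.59 CPM in eWAT and 832, 1225 and 985 CPM in iWAT, and all 10 were higher in iWAT (median -7.01). T cell genes summed to 15.4 to 29.4 CPM in eWAT and 559.8 to 943 CPM in iWAT, and all 13 were higher in iWAT (median -5.26). *Cd3e*, of the T cell receptor complex, was at 1.52, 1.04, 0.903 and 0.767 CPM in eWAT and 38.5, 51.5 and 40.1 CPM in iWAT (log2 fold change -5.35 ± 0.27 SE, adjusted p = 6.40e-05). Genes of lymph node stroma and follicles moved with them, 6 of 7 tested being higher in iWAT. *Cr2*, of follicular dendritic cells and B cells, was at 0.169, 0.0591, 0.159 and 0 CPM in eWAT and 79.4, 91.7 and 68.4 CPM in iWAT (log2 fold change -9.67 ± 0.56 SE, adjusted p = 9.24e-05). *Cxcl13*, the chemokine of B cell follicles, was at 2.01, 2.09, 0.186 and 1.26 CPM in eWAT and 59.4, 64.6 and 59.5 CPM in iWAT (log2 fold change -5.44 ± 0.64 SE, adjusted p = 0.00143). *Glycam1*, a product of high endothelial venules, had 1 read in eWAT and was at 14.9, 26.2 and 26.5 CPM in iWAT, a ratio of 4331 (95% counting interval 777 to 171138). Each of these genes was highest, or close to highest, in iWAT 2. The T and B cell counts stayed the same with any 1 library left out. A set of 12 genes with the smallest adjusted p in the iWAT direction was chosen after the values were seen. It was drawn only from protein-coding genes at 10 CPM or more, without overlap and on no list of another tissue. The set included *Gimap3*, *Tnfrsf13c* (the BAFF receptor), *Pou2af1* and *Il21r*, all expressed by lymphocytes. *Hoxc10*, which the filter of 10 CPM left out, had the same adjusted p as *Tnfrsf13c* (5.32e-05 in edgeR). *Tnfrsf13c* was at 0.226, 0.197, 0.213 and 0.104 CPM in eWAT and 34.8, 48.7 and 34.8 CPM in iWAT (log2 fold change -7.72 ± 0.29 SE, adjusted p = 5.32e-05). Among the 12 with the largest difference, *H2-Eb2* and *Nsg2* were likewise even across iWAT. Beside these 3 and *Ucp1*, the other 8 were genes of striated muscle such as *Ttn* and *Atp2a1*, each highest in iWAT 1, with *Ttn* at 542, 4.11 and 17.1 CPM in iWAT.

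Proliferation genes were higher in iWAT for 7 of 11 tested (median -0.95), with *Top2a* at 8.71, 6.08, 5.18 and 4.93 CPM in eWAT and 13.4, 17.5 and 9.69 CPM in iWAT (log2 fold change -1.12 ± 0.28 SE, adjusted p = 0.0274). The count was 1 to 6 with 1 library left out, lowest without eWAT 4 or iWAT 2, and 3 without eWAT 3 or iWAT 1. *Top2a* and *Mki67* were highest in iWAT 2, where the lymphoid sums were highest too, and the part of lymph node cells in them was not tested. Of 5 tested genes of peripheral nerve 3 were higher in iWAT and 1 in eWAT. *Mbp*, a myelin protein of Schwann cells, was at 29.3, 22.5, 24.4 and 27.0 CPM in eWAT and 90.2, 72.2 and 60.7 CPM in iWAT (log2 fold change -1.53 ± 0.15 SE, adjusted p = 7.76e-04), and *Pmp22*, which other cells express too, was higher in eWAT (log2 fold change 0.41 ± 0.13 SE, adjusted p = 0.0617), a call lost without eWAT 1, eWAT 4, iWAT 2 or iWAT 3. *Th* and *Dbh*, the enzymes of noradrenaline synthesis, had few or no reads. Of 12 immediate early genes, which respond within minutes to stimuli, 4 were higher in eWAT, with *Fos* at 13.8, 5.47, 8.93 and 5.22 CPM in eWAT and 3.59, 1.81 and 3.48 CPM in iWAT (log2 fold change 1.5 ± 0.44 SE, adjusted p = 0.0445), and 1, *Junb*, in iWAT. The eWAT count was 1 to 4 with 1 library left out, lowest without iWAT 2, and 2 without iWAT 3.

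The depot difference of lean mice was then set beside that of wild type mice fed HFD (60% of calories from fat) for the same 16 weeks, with 5 libraries per depot, by an interaction test in a fit of all 25 libraries. Of 15034 genes, 4360 (29%) had a depot difference that itself differed between diets. Numbers in the file headers form 2 series. All 7 lean libraries and 1 of 5 HFD libraries per depot belong to the second, so that diet and series nearly coincide. With the series as a term 4541 genes were called. On each diet both wild type depots hold the same mix of the 2 series, so this term nearly cancels out of the interaction. It could not remove a series effect that differed between depots. With the 11 libraries of the second series alone, the HFD groups had 1 library each. The lone libraries are there assumed to vary like the others.

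The interaction calls of depot identity genes are to be read beside the 29% of all genes. Of 7 visceral factors 1 (*Osr1*), and of 8 limb factors 2 (*Lhx8* and *Prrx1*), showed an interaction, as did 7 of 24 Hox genes, 5 of them in cluster B. *Hoxb9* was among these (interaction 3.03 ± 0.56 SE, adjusted p = 5.87e-04). The median depot difference of Hox groups 1 to 8 was 0.62 on ND and -0.13 on HFD. That of groups 9 to 13 was -2.08 on ND and -2.97 on HFD. In the second series alone *Lhx8* was called (adjusted p = 0.0800), and 0 visceral and 0 Hox genes were called by edgeR, with 1 and 4 at an unadjusted p under 0.05. *Wt1* was at 6.01 to 11.9 CPM (median 6.76) in eWAT and 0 to 0.0511 CPM (median 0) in iWAT on HFD, where the iWAT values rest on single reads (interaction adjusted p = 0.682). *Shox2* was at 0.524 to 1.14 CPM (median 0.616) in eWAT and 11.9 to 43.7 CPM (median 34.3) in iWAT on HFD, with log2 fold changes of -4.59 on ND and -5.45 on HFD (interaction 0.86 ± 0.77 SE, adjusted p = 0.461). *Tbx15* was at 0.0259 to 0.206 CPM (median 0.0711) in eWAT and 16.9 to 18.7 CPM (median 18.3) in iWAT (interaction 0.83 ± 0.69 SE, adjusted p = 0.424). *Hoxc10* was at 0.0209 to 0.504 CPM (median 0.213) in eWAT and 15.8 to 28.3 CPM (median 21.4) in iWAT (interaction 1.51 ± 0.77 SE, adjusted p = 0.169). These 4 genes did not overlap between depots on either diet. The depot difference of *Agt* was 4.78 on ND and 2.70 on HFD (interaction 2.08 ± 0.51 SE, adjusted p = 0.00582), and that of *Adipoq* 0.66 on ND and -0.41 on HFD (interaction 1.07 ± 0.32 SE, adjusted p = 0.0184). In the second series alone neither was called, at an interaction of 1.05 (adjusted p = 0.447) and 0.58 (adjusted p = 0.463). The depot difference of vascular genes differed between the diet groups. An interaction was called in all 9 endothelial genes (median depot difference 0.62 on ND and -0.79 on HFD) and in 8 of 8 smooth muscle genes. In the second series alone 0 and 0 of them were called by edgeR, with 3 and 6 at an unadjusted p under 0.05.

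Of 22 thermogenic genes 12 showed an interaction, all with a more negative difference on ND. *Ucp1* was at 0 to 1.63 CPM (median 0.101) in eWAT and 0.380 to 2.07 CPM (median 0.582) in iWAT on HFD (interaction -11.00 ± 2.09 SE, adjusted p = 8.12e-04). *Cox8b* was at 11.3 to 35.5 CPM (median 17.2) in eWAT and 21 to 38.7 CPM (median 32.3) in iWAT (interaction -3.87 ± 0.72 SE, adjusted p = 6.96e-04). In the second series alone 1 of 23 thermogenic genes was called, *Cox8b* (adjusted p = 0.0785), and *Ucp1* (adjusted p = 0.527), *Cidea* (adjusted p = 0.412), *Cox7a1* (adjusted p = 0.200) and *Otop1* (adjusted p = 0.223) were not. Of lymphoid genes, all 13 T cell and 10 B cell genes showed an interaction. The B cell median was -7.03 on ND and -0.68 on HFD, and the T cell median -5.27 and -0.54. *Tnfrsf13c* was at 0.104 to 0.450 CPM (median 0.206) in eWAT and 0.0984 to 2.49 CPM (median 0.150) in iWAT on HFD. In the second series alone 5 B cell and 4 T cell genes were called. Whether the lymph node was part of the iWAT piece in each diet group is not given by the labels and was not tested.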

How the data were processed

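RNA was isolated from whole eWAT and iWAT, libraries were made with the NEBNext Ultra II Directional kit, and adapters were trimmed with cutadapt. Per the paper's methods, the authors filtered contaminant sequences and aligned the reads to mouse genome mm10 with STAR. The deposited values used here are counts of uniquely aligned reads per gene, listed for 54752 genes of which 54723 have a symbol. The counting tool and its strand setting are not given in the sources used here, so overlapping and antisense genes are uncertain. Reads of near-identical copies can be split as well. The deposited FPKM values, which scale the counts by gene length and by the reads mapped or counted, were not used in the tests. Those by reads counted were recomputed from the counts and differed by at most 0.0005 in any library. Reads outside genes (8.63% to 11.2%) and ambiguous reads (1.66% to 1.81%) were left out of library sizes.

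Samples were grouped by their labels. Genes averaging 1 CPM or more in the 7 libraries were fitted with edgeR 4.0.16 in R 4.3.3 (TMM factors 0.924 to 1.07, quasi-likelihood test, Benjamini-Hochberg adjustment, threshold 0.1, the latter following the study). Log2 fold changes are eWAT minus iWAT as fitted by edgeR at its default prior count. A prior count of 2 was used only for the log2 values behind the principal components and the correlations between libraries. Intervals of read ratios are exact binomial ones at 95%. For a gene without reads in a depot the fold is a lower bound against 3 reads over that depot. The depot difference was compared between diets by an interaction term in a fit of all 25 libraries. No 2 libraries were copies of each other (chi-square per degree of freedom 66.7 to 189 between libraries of a depot). The test was checked on simulated data. DESeq2 1.42.0 (R) and other filters, scalings, thresholds and sample sets were tried as alternatives. Leaving eWAT 2 and iWAT 1 out together, the list counts without each library and the fits on the number series of the file headers were chosen after seeing the data.

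The comparison, its 40 gene lists (23 of pathways, 17 of cell types, 564 genes, of which 562 matched and 478 were tested) and the tests were chosen with earlier results of these data known. Genes were named by rule: per direction the 12 called protein-coding genes with the largest log2 fold change among those with a mean of at least 10 CPM, no overlap between depots and no place on a list of another tissue; list members where their list is described; and a panel of 26 genes. Some genes that the rule names are not reported here. Genes named for the smallest adjusted p had to pass the same filters of type, level, overlap and tissue list, and were chosen after their values were seen.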

Additional observations from a re-analysis of the deposited data

Results flagged for a closer look

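In 14 of 61 sets of 4 eWAT values, 1 library lay apart from the other 3 by Dixon's criterion. Independent, normally distributed values meet it in about 1 of 20 sets. The sets here share the same libraries and include genes chosen for a large difference, so the 2 shares are not comparable. In eWAT 2 this held for 7 of the genes with the largest difference towards eWAT, namely *Eddm3b* (115 CPM), *C4bp* (108 CPM), *Wfdc8* (64.1 CPM), *Pou3f3* (61.7 CPM), *Ptgds* (235 CPM), *Prom1* (304 CPM) and *Mum1l1* (132 CPM). It also held there for the summed epididymis genes (11543 CPM) and sperm genes (90.9 CPM), which were used to describe that library. The muscle genes *Ampd1* (0.0984 CPM in eWAT 2), *Mybpc1* (0.207 CPM in eWAT 1) and *Actn2* (0.207 CPM in eWAT 4) lay apart at levels that are low beside iWAT. *Gpx5* lay apart in eWAT 3 (5.26 CPM), the second library with epididymal genes. *Tcf21*, at 7.21 CPM in eWAT 1, was the only one of these that belongs to visceral stroma.

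The depot difference itself differed between ND and HFD, by the interaction test, for 14 of 42 genes named by rule or used as tissue checks, against 29% of all genes tested. These included the 12 genes per direction chosen for the largest depot difference on ND. The same ND libraries enter the interaction, so this choice favours a call and the 2 shares are not comparable. Values are the log2 fold change on ND minus that on HFD. Genes of lymphocytes stood at -6.38 (*Tnfrsf13c*), -7.82 (*H2-Eb2*) and -5.10 (*Nsg2*). Muscle genes stood at -6.10 (*Mybpc1*), -6.24 (*Cacna1s*), -7.07 (*Myoz1*), -4.90 (*Actn2*) and -3.35 (*Acta1*), and iWAT 1 held most of the ND muscle reads. *Ucp1* stood at -11.00. In the other direction were *Agt* (2.08), *Adipoq* (1.07), *C4bp* (14.43), *Wfdc8* (10.34) and *Prom1* (5.65), the last 3 being highest in eWAT 2. Fitted values of genes with no or few reads in a group depend on the prior count. Diet nearly coincides with the number series of the file headers, as described above.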

How the results depend on the processing

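The counts of genes higher in eWAT and in iWAT kept within 1.5 times of their values under other normalization, test, filter, threshold and sample choices. They did not in every case with 1 library left out. With 1 library left out they ranged from 1451 to 2776 for eWAT and 1480 to 2418 for iWAT, both lowest without iWAT 2, and the eWAT count was 1972 without iWAT 3. Calls with a log2 fold change of at least 1 ranged from 1712 to 2567, and fell to 1401 with at least 1 CPM required in every library, where fewer genes were tested. The interaction count ranged from 2963 to 4584, and was 260 with the second header series alone, where fewer samples entered. The DESeq2 Wald test called more genes of fuel metabolism in iWAT, with 17 of fatty acid oxidation, 12 of the TCA cycle and 15 nuclear subunits. DESeq2 size factors moved the median of all genes from 0.03 to 0.01. Of 339 values of named genes under other settings, 323 kept direction and side of the threshold, and of 293 with 1 library left out 260 did. The 6 that reversed were uncalled: *Fasn* (-0.04) was at 0.18, 0.11 and 0.06 without eWAT 1, 2 and 3 and at 0.41 without iWAT 3 (-0.70 without eWAT 4), and *Nnat* (0.21) at -0.11 without eWAT 3 and -0.01 without iWAT 2 (0.55 without iWAT 1). *Hoxa5* (adjusted p = 0.130) and *Hoxc8* (adjusted p = 0.222) were not called in the edgeR fit of 25 libraries.

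The labels pair no libraries across depots, and the deviations of same-numbered libraries correlated at 0.203, 0.0439 and 0.120, not all above 0.1, so the numbers were not taken as pairs. Each library of numbers 1 to 3 nevertheless correlated best with its own number, a hint from the data only. With the number as a replicate block, 3132 genes were higher in eWAT and 2420 in iWAT, 2489 with a log2 fold change of at least 1, and 4539 had an interaction. More genes of fuel metabolism were then higher in iWAT, with 17 of fatty acid oxidation, 16 of the TCA cycle, 20 nuclear and 9 mitochondrial subunits and 6 lipogenic genes, *Fasn* among them (-0.57, adjusted p = 0.0922 in edgeR), but 3 proliferation genes. Of 12 adipocyte genes 4 were then higher in eWAT, *Lep* among them (1.51, adjusted p = 0.00242 in edgeR), and 3 in iWAT. Which cause underlies these shifts was not tested. Depth was 37860966 to 52335623 counts, and genes under 1 CPM were not tested.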
